A study of Homo sapiens with 6 samples.

Results

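Liver-enriched transcription factors of the HNF, FOXA and CEBP classes were examined in Hep3B, a long-established line of human liver carcinoma cells, on 6 Affymetrix HG-U133 Plus 2 arrays. The factors were HNF4A, FOXA1, FOXA2, FOXA3, CEBPA, ONECUT1, ONECUT2 and PROX1, and every probe set to which the platform annotation gives 1 of these symbols was taken, whatever its value. The annotation used here named 17 such probe sets for 7 of the 8 factors. It named none for HNF4A, which is therefore not analysed here. The 3 miR-17 TuD arrays came from cells that express a tough decoy (TuD), an RNA with exposed sites that bind a microRNA, here miR-17. The 3 NC TuD arrays came from cells with a control decoy, and both lines were made with lentivirus, given for 48 hours at 5 infectious units per cell. Both were selected with 1.0 µg/mL puromycin, and the colonies that resisted the drug after 2 weeks were pooled, so each group rests on a single pooled line. Polybrene at 10 µg/mL and serum at 10% are given alike for all 6 arrays. The description of every array also carries a code with 72HR, joined to PLUSDOX on the miR-17 TuD arrays and to NODOX on the NC TuD arrays. The code is not explained in the sources used here and cannot be told apart from the decoy. The labels do not state separate cultures, so the p-values measure the spread between arrays, which may be technical.

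Hepatocyte identity depends on a network of transcription factors that bind and activate one another's genes together with those of plasma proteins and metabolic enzymes. FOXA proteins open chromatin for other factors, HNF4A and CEBPA drive most hepatocyte-specific transcription, and the ONECUT proteins and PROX1 act from the first stages of liver development. MiR-17 belongs to a family of microRNAs that share a seed, the bases by which a microRNA pairs with its target mRNAs. The 6 mature sequences of the family are shown because the decoy is named for miR-17 and its relatives share the seed. They are written 5′ to 3′ from RefSeq (GRCh38.p14), with the seed (bases 2 to 8) in capitals.
hsa-miR-17-5p: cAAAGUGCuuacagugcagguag
hsa-miR-20a-5p: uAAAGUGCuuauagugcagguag
hsa-miR-20b-5p: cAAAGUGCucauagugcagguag
hsa-miR-93-5p: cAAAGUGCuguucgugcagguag
hsa-miR-106a-5p: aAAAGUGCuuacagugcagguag
hsa-miR-106b-5p: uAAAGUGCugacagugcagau
All 6 carry the seed AAAGUGC and differ from each other outside it.

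For 5 of the 7 measured factors the 250 bases before the annotated gene start were at hand. Those of ONECUT1 and CEBPA are shown as regulatory windows of factors with lower values in the miR-17 TuD arrays, that of FOXA3 as one of a factor whose groups overlapped, and that of FOXA1 because it alone held the FOXA motif searched. They come from RefSeq (GRCh38.p14), read 5′ to 3′ on the strand of the gene, and capitals mark the motifs found.
ONECUT1 (chr15:52790337-52790586, minus strand): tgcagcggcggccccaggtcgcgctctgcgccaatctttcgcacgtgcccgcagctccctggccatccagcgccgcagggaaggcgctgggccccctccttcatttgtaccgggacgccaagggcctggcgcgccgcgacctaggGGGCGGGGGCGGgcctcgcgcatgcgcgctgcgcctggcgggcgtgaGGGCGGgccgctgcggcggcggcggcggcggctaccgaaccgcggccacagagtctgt
CEBPA (chr19:33302535-33302784, minus strand): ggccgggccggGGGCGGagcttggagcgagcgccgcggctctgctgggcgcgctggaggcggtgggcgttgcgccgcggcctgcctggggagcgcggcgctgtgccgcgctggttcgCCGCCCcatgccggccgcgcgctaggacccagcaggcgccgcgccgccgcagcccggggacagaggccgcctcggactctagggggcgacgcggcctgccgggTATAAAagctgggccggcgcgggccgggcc
FOXA3 (chr19:45864076-45864325, plus strand): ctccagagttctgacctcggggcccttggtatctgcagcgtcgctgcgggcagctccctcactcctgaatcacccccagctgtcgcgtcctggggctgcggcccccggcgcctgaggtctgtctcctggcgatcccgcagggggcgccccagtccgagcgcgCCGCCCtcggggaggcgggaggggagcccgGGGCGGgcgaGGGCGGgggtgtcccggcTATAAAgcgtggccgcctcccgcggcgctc
FOXA1 (chr14:37595250-37595499, minus strand): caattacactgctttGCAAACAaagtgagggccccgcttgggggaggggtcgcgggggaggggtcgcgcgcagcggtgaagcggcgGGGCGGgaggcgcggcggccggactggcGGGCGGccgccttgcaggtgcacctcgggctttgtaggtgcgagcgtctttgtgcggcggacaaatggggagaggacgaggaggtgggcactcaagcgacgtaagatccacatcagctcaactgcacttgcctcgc
The motifs were searched on both strands, with overlapping matches counted, as TGTTTNC for FOXA, ATTGAT for ONECUT, TTGCNNAA for CEBP, CAAAGTCCA for HNF4, GTTAAT for HNF1, TATAAA for a TATA box and GGGCGG for a GC box. A GC box was found in all 5 windows, against 42.6% of 35114 windows of the same length in the genome's RefSeq genes. A TATA box began 30 bases before the start in both CEBPA and FOXA3, and 10.7% of all windows held one. FOXA1 held the FOXA motif 235 to 229 bases before its start, as did 15.5% of all windows anywhere. None of the 5 windows held the ONECUT, CEBP, HNF4 or HNF1 letters, which 5.58%, 9.05%, 0.325% and 6.23% of all windows held. The windows were rich in G and C, at 67.2% in FOXA1, 68.8% in ONECUT2, 75.2% in FOXA3, 76.8% in ONECUT1 and 81.2% in CEBPA, against a median of 58% over all windows. A match is a description of letters, and an absent match says nothing of binding.

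All values below are the authors' log2 expression values, and a difference is miR-17 TuD minus NC TuD. The level of a probe set depends on its own oligonucleotides, so levels were compared between groups and not between probe sets. The scale has a lowest value of 2.12, which 34.9% to 35.4% of probe sets took on each array. Arrays of a group correlated at 0.9989 to 0.9993 and arrays of different groups at 0.9977 to 0.9984 across the probe sets tested. Of 32768 probe sets tested with limma at an adjusted p (Benjamini-Hochberg over all of them) under 0.05, 2.48% were lower and 3.35% higher in the miR-17 TuD arrays. Hepatocyte markers were present on every array, with none of 10 at the lowest value, and 3 of the 5 cholangiocyte markers, SOX9, KRT19 and EPCAM, were at high values in both groups (12.41 to 15.10). Of the other two, KRT7 read 9.29 to 9.48 on the miR-17 TuD and 8.81 to 9.29 on the NC TuD arrays (difference 0.35, adjusted p = 0.193 in limma over all genes), and CFTR stood within 0.01 of the lowest value. The 5 cholangiocyte markers summed to 15.81 to 15.89 against 15.86 to 15.89 (log2 of the summed linear levels, as for each list here). Of the 4 of them tested at gene level only SOX9 was called, as lower (-0.15, adjusted p = 0.0221 in limma). At gene level, where 4.60% of 13949 genes were lower and 6.78% higher, 7 of 10 hepatocyte markers were called lower and none higher. The other 3 lay above in the miR-17 TuD arrays without overlap of the groups, but were not called. They were SERPINA1 (0.13, adjusted p = 0.0912 in limma), KRT18 (0.08, 0.051) and KRT8 (0.06, 0.141). The summed level of the 10 hepatocyte markers was 17.59 to 17.61 in the miR-17 TuD and 17.71 to 17.75 in the NC TuD arrays. That of 5 fibroblast markers was 12.57 to 13.15 against 12.55 to 12.60, from COL1A1 and COL1A2, with COL3A1 at the lowest value. The lymphatic endothelial markers, a cell type that also expresses PROX1, summed to 5.03 to 5.18 against 5.05 to 5.09, with PDPN at the lowest value on all arrays. Of the blood markers, 4 of 5 had a probe set to which the annotation gives only their symbol. They summed to 4.85 to 4.99 against 4.93 to 5.02, with CD3E at the lowest value. Of the pancreas markers, 3 of 5 had such a probe set, with INS and GCG at the lowest value. Signals of ACTB control probe sets at the 3′ end minus the 5′ end, a measure of RNA integrity, were 0.68 on each miR-17 TuD array and 0.70, 0.69 and 0.71 on the NC TuD arrays (2-sided exact permutation p = 0.1, the smallest that 3 against 3 arrays allow). For GAPDH the exact p was 0.8. The part of any of these in the results was not tested.

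Of the 17 probe sets, 15 passed the filter on low values, and 2 of these, 1 each for ONECUT1 and PROX1, were lower in the miR-17 TuD arrays at an adjusted p under 0.05, where 2.48% of all probe sets were. None was higher. In 10 of the 15 every miR-17 TuD value lay below every NC TuD value, which was so in 13.6% of all tested probe sets, and in none did the miR-17 TuD values all lie above. The differences of 13 were negative and of 2 positive, with a median of -0.22, against a median of 0.00 and 48.1% negative over all tested probe sets. The probe sets of a gene share its transcript and are not independent. The remaining 2, 214312_at of FOXA2 and 233441_at of ONECUT2, were at the lowest value on all 6 arrays and hold no measured level. The shares over all tested probe sets include those with means just above 2.14, close to the lowest value of 2.12. With the filter at the 60th percentile (5.63), 1566 of 21845 probe sets were called lower, among them 5 of the factors' probe sets. The 2.48% is thus a low comparator for factors with a clear signal. Separation of the groups was not counted at that filter, and the shares over all genes rest on the lower one.

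**Figure D1:**
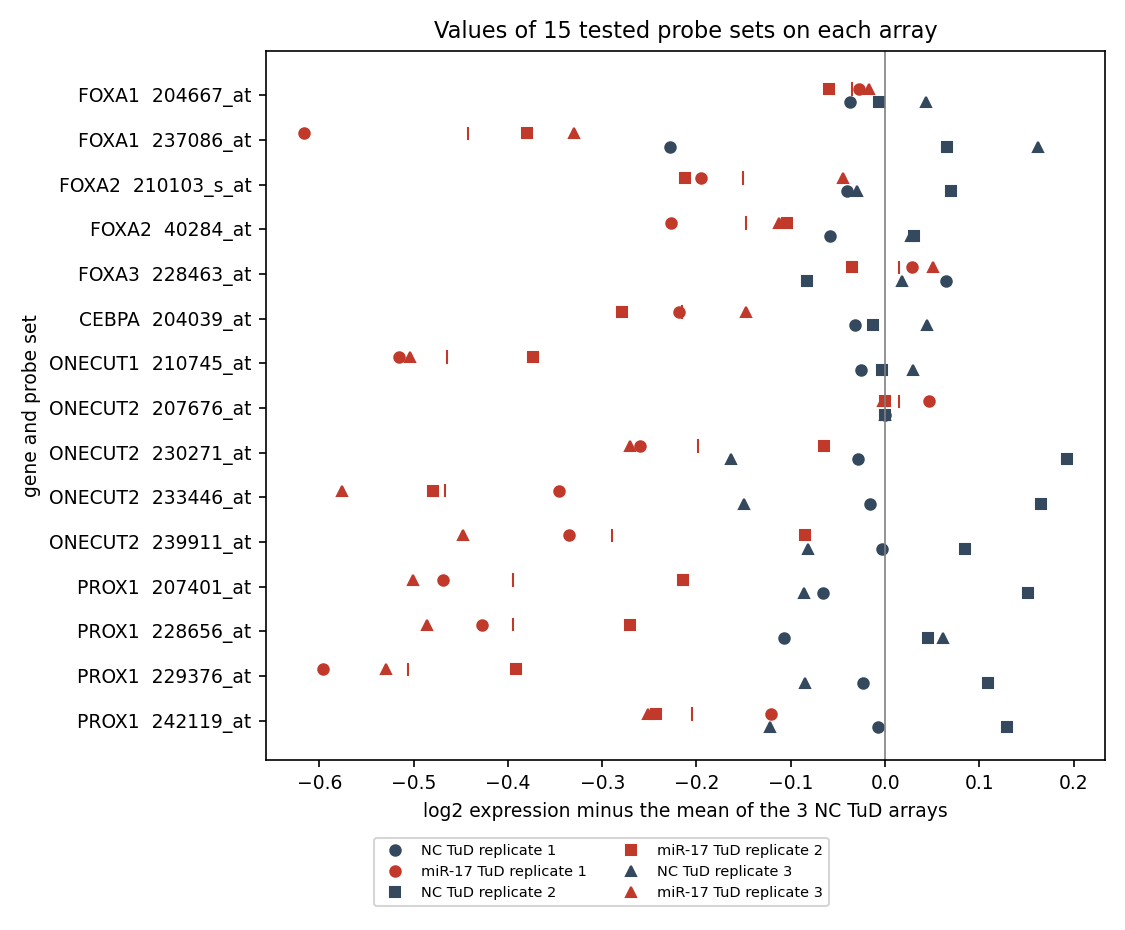
Each row is 1 tested probe set, each point 1 array, and the horizontal axis its log2 value minus the mean of the 3 NC TuD arrays for that probe set; red points are miR-17 TuD, dark points NC TuD, symbols replicates and short red bars the miR-17 TuD means. In 10 of 15 rows all red points lie to the left of all dark points, and in the rows of FOXA3, FOXA1 204667_at and ONECUT2 207676_at they lie together near 0.

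ONECUT1, also known as HNF-6, is a cut-homeodomain factor of hepatocytes, bile duct cells and pancreas, and its gene lies on chromosome 15. It had the smallest p among the factors. Its only probe set, 210745_at, read 8.48, 8.62 and 8.49 on the miR-17 TuD arrays and 8.97, 8.99 and 9.02 on the NC TuD arrays. The NC TuD values lay within 0.055 of each other, and the highest miR-17 TuD value was below all of them. The means were 8.53 ± 0.079 and 8.99 ± 0.028 (SD, n = 3), so the transcript was 1.38-fold lower (difference -0.46, SE 0.045, 95% interval -0.58 to -0.35, adjusted p = 0.0176 in limma). In RNA from whole cultures, fewer cells with the transcript and less of it per cell cannot be told apart. By its p this probe set stood 432nd of 32768. The adjusted p rose above 0.05 without NC TuD replicate 1 (0.0729), 2 (0.0825) or 3 (0.0726), with differences from -0.51 to -0.44 when each of the 6 arrays was dropped in turn.

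ONECUT2, the paralog of ONECUT1, lies on chromosome 18 and had 5 probe sets, 4 of them tested and none past the threshold. Probe set 233446_at read 8.58, 8.45 and 8.35 on the miR-17 TuD arrays and 8.91, 9.09 and 8.78 on the NC TuD arrays. Its groups did not overlap, and its difference of -0.47 (SE 0.11, 95% interval -0.74 to -0.19) was as large as that of ONECUT1, but its arrays varied more, and the adjusted p was 0.0814 in limma. With the 60th percentile filter it passed (adjusted p = 0.0309), as it did with median centring (0.0497). These were 2 of the 7 alternatives that kept all 6 arrays. It passed in 0 of 6 fits with 1 array dropped (0.118 to 0.211). Probe set 239911_at read 8.90, 9.15 and 8.78 against 9.23, 9.32 and 9.15. Its highest miR-17 TuD value, on replicate 2, came within 0.01 of its lowest NC TuD value, and the difference was -0.29 (SE 0.11, adjusted p = 0.225). Probe set 230271_at read 7.86, 8.06 and 7.85 against 8.10, 8.32 and 7.96, with overlapping groups and a difference of -0.20 (SE 0.11, adjusted p = 0.402). Probe set 207676_at stood at 3.68 on 5 of the 6 arrays and at 3.73 on miR-17 TuD replicate 1, so it carried almost no variation.

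PROX1, a homeodomain factor on chromosome 1 that in hepatocytes restrains the activity of HNF4A and NR5A2, was measured by 4 probe sets, and all 4 differences were negative. Probe set 229376_at read 11.33, 11.53 and 11.39 on the miR-17 TuD arrays and 11.90, 12.03 and 11.84 on the NC TuD arrays. The gap between the groups was wider than the range within either. The means were 11.42 ± 0.10 and 11.92 ± 0.099 (SD, n = 3), a 1.42-fold lower level (difference -0.51, SE 0.077, 95% interval -0.71 to -0.30, adjusted p = 0.0388 in limma). This call was lost whichever of the 6 arrays was dropped, at adjusted p of 0.0896, 0.063 and 0.102 on dropping miR-17 TuD replicate 1, 2 or 3 and of 0.129, 0.115 and 0.0944 on dropping NC TuD replicate 1, 2 or 3, and with no filter on low values (0.0935).

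Probe set 228656_at of PROX1 read 12.44, 12.60 and 12.39 against 12.76, 12.92 and 12.93, without overlap. Its difference of -0.39 (SE 0.078) missed the threshold among probe sets (adjusted p = 0.063 in limma) and passed it among 13949 genes, each represented by its probe set of highest mean (0.0436). The gene-level call was lost whichever array was dropped (0.0508 to 0.149). Probe set 207401_at read 10.00, 10.26 and 9.97 against 10.40, 10.62 and 10.38. It also had separate groups, and its difference was -0.39 (SE 0.11, adjusted p = 0.127). Probe set 242119_at read 8.01, 7.89 and 7.88 against 8.12, 8.26 and 8.01. Here miR-17 TuD replicate 1 lay just above NC TuD replicate 3, so the groups overlapped, and the difference was smaller, at -0.20 (SE 0.078, adjusted p = 0.229). In 3 of the 4 probe sets miR-17 TuD replicate 2 was the highest of its group, and in 3 of the 4 NC TuD replicate 2 was.

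CEBPA, a leucine zipper factor that drives hepatocyte genes and holds cells out of the cell cycle, lies on chromosome 19 and had 1 probe set, 204039_at. It read 12.95, 12.88 and 13.02 on the miR-17 TuD arrays and 13.13, 13.15 and 13.21 on the NC TuD arrays. The groups did not overlap, and the lowest NC TuD value was 0.12 above the highest miR-17 TuD value. The means were 12.95 ± 0.066 and 13.16 ± 0.04 (SD, n = 3), a 1.16-fold lower level (difference -0.22, SE 0.042, 95% interval -0.32 to -0.11). The adjusted p was 0.0607 over all probe sets and 0.0424 over all genes in limma, so its call depended on which features were adjusted together. Among probe sets it passed with the 60th percentile filter (0.0319), quantile normalization (0.0375), median centring (0.045) or array weights (0.0466). It did not with no filter on low values (0.137), another variance model (0.0675), the replicate block (0.0805) or any 1 array dropped (0.0614 to 0.183). With 1 array dropped, at gene level it passed without miR-17 TuD replicate 3 (0.0392) and in none of the other 5 (up to 0.133).

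The FOXA genes encode closely related forkhead factors, and none of their 5 tested probe sets passed the threshold. FOXA3 on chromosome 19 read 11.23, 11.17 and 11.25 on the miR-17 TuD arrays and 11.27, 11.12 and 11.22 on the NC TuD arrays (228463_at). The groups lay within each other, the difference was 0.01 (SE 0.047, adjusted p = 0.912 in limma), and its 95% interval of -0.11 to 0.14 left out a change of the size measured for ONECUT1. The difference between those changes was not tested.

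FOXA2 on chromosome 20 was read by 2 probe sets with a signal, whose differences were nearly equal. Probe set 40284_at read 10.58, 10.71 and 10.70 against 10.75, 10.84 and 10.84, a difference of -0.15 (SE 0.046, 95% interval -0.27 to -0.03, adjusted p = 0.159 in limma). Probe set 210103_s_at read 11.00, 10.98 and 11.15 against 11.15, 11.26 and 11.17, a difference of -0.15 (SE 0.059, adjusted p = 0.237). Neither pair of groups overlapped, although in 210103_s_at miR-17 TuD replicate 3 came within 0.01 of NC TuD replicate 1.

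The 2 probe sets of FOXA1, on chromosome 14, gave unlike values. Probe set 204667_at read 9.78, 9.75 and 9.79 against 9.77, 9.80 and 9.85, with overlap and a difference of -0.03 (SE 0.025, 95% interval -0.10 to 0.03, adjusted p = 0.503 in limma). Probe set 237086_at read 8.19, 8.43 and 8.48 against 8.58, 8.87 and 8.97, without overlap, at a difference of -0.44 (SE 0.14, 95% interval -0.80 to -0.08, adjusted p = 0.155). Within arrays, their differences were 0.41 apart, without overlap of the groups (2-sided exact permutation p = 0.1). That is the smallest p possible here, and it became 0.28 when adjusted over 14 pairs of probe sets of the same gene. Of those 14 pairs, 5 reached an exact p of 0.1, namely the FOXA1 pair, 3 pairs of ONECUT2 and 229376_at with 242119_at of PROX1. The ONECUT2 pairs were 230271_at with 233446_at, and 207676_at with 233446_at and with 239911_at. Probe set 207676_at carried almost no variation, so its pairs reflect the other probe set alone. The transcript parts that these probe sets read were not examined here.

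**Figure D2:**
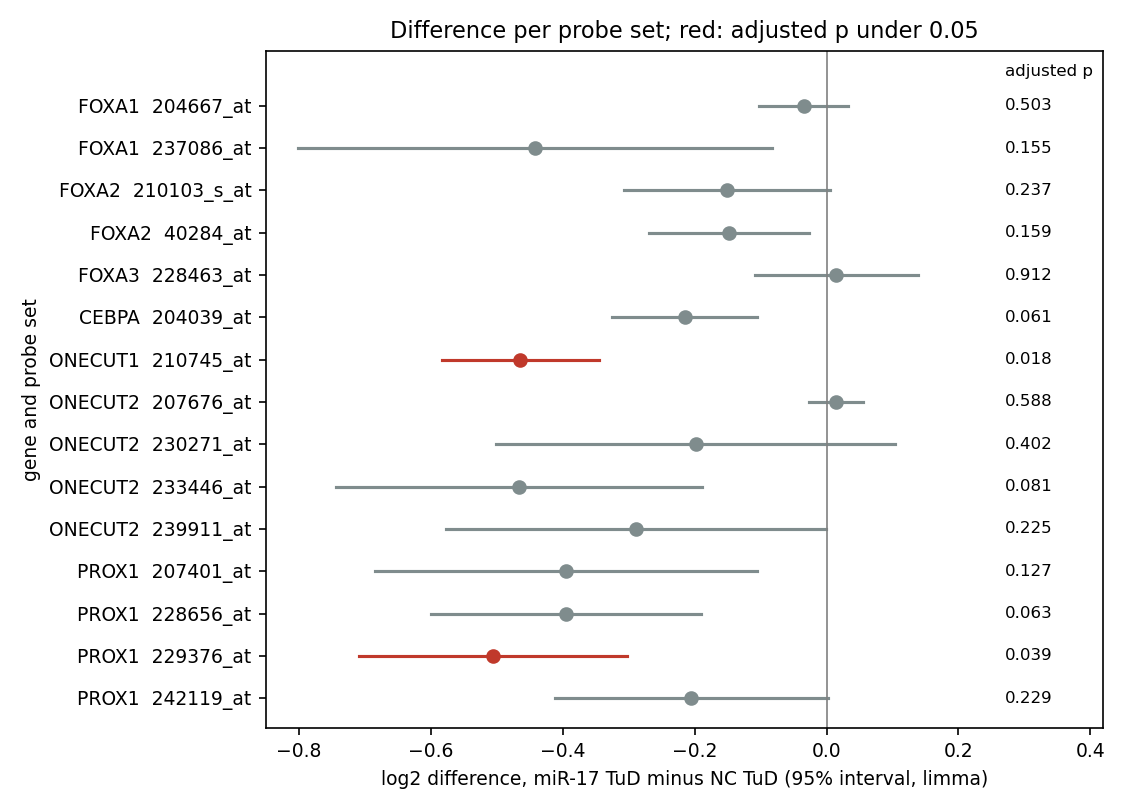
Points are log2 differences (miR-17 TuD minus NC TuD, 3 arrays each) of the 15 tested probe sets, horizontal bars their 95% intervals in limma, and the column on the right the adjusted p. The probe sets of ONECUT1 (-0.46) and PROX1 229376_at (-0.51), in red, passed 0.05, and the interval of FOXA3 (-0.11 to 0.14) spans 0.

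Represented by the probe set of highest mean, 3 of the 7 measured factors were lower in the gene-level fit, ONECUT1, PROX1 and CEBPA, where 4.60% of 13949 genes were lower and 6.78% higher. With all 6 arrays kept, ONECUT1 stayed called at gene level in 9 of 9 alternatives, CEBPA in 6 and PROX1 in 5. With 1 array dropped in turn, they were called in 4, 1 and 0 of 6 fits. CEBPA and PROX1 were lost with no filter on low values (0.0826 and 0.0859 in limma) and with the replicate block (0.0566 and 0.0849). Among probe sets and with all 6 arrays kept, ONECUT1 stayed under 0.05 in 6 of 7 settings. Probe set 229376_at of PROX1, which does not represent it at gene level, did so in 5 of 7.

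**Figure D3:**
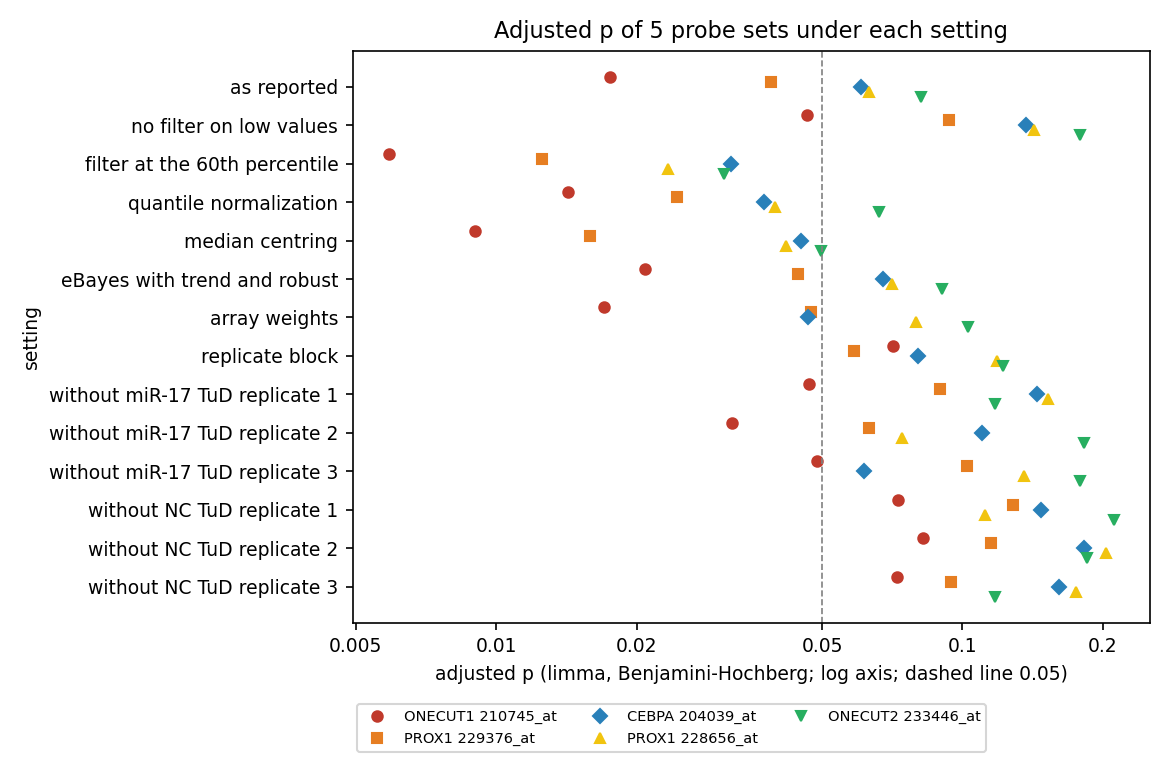
Adjusted p (log axis) of the 5 probe sets nearest the threshold, under the fit as reported and each alternative (rows); the dashed line is 0.05. ONECUT1 lies left of the line except with the replicate block and without any 1 NC TuD array, and the other 4 probe sets lie right of it with any 1 array dropped.

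Among 36 other liver transcription factors and coregulators, 29 were measured, and 4 were lower and 2 higher at an adjusted p under 0.05 in limma, against 4.60% lower and 6.78% higher over all genes. The median difference was -0.06, against 0.00 over all genes. RORA, an orphan nuclear receptor of the clock and of lipid metabolism, stood at 9.18 ± 0.091 against 9.85 ± 0.10 (SD, n = 3) and was 1.59-fold lower (-0.67, SE 0.072, adjusted p = 0.0127). Its call ended without NC TuD replicate 1 (0.0547), and with its probe sets averaged the difference was -0.33 (0.00946). ATF5, a stress-responsive leucine zipper factor, was higher by 0.47 (SE 0.088, adjusted p = 0.0404). It was higher by 0.12 when its probe sets were averaged (0.0588), and its call held on dropping NC TuD replicate 3 but no other single array. NR0B2, also called SHP, a receptor without a DNA-binding domain that represses HNF4A and NR5A2, was higher by 0.34 (SE 0.052, adjusted p = 0.0261), and NR5A2, which binds the genes of bile acid synthesis, stood at -0.28 (SE 0.04, adjusted p = 0.0222). Both calls held on dropping miR-17 TuD replicate 2 but no other single array, and with its probe sets averaged NR5A2 stood at -0.45 (0.00946). On dropping miR-17 TuD replicate 1, 2 or 3 the list held 1, 3 or 2 called genes in place of 6, and on dropping NC TuD replicate 1, 2 or 3 it held 1, 1 or 3.

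Genes reported as targets of these factors were described by their counts. The lists were assembled from general knowledge, but with earlier results of these data known, so their counts are not independent of these data. The lists share members, such as TTR, which carries thyroid hormone and retinol-binding protein and is in all 4. Of genes reported to depend on HNF4A, 13 of 19 measured were lower and none higher, with a median of -0.29, where 4.60% of all genes were lower and 6.78% higher. SERPINA1, in the HNF4A, FOXA and CEBPA lists, lay above without overlap of the groups and was not called (0.13, adjusted p = 0.0912 in limma). TF, the iron carrier transferrin, stood at -0.49 (SE 0.021, adjusted p = 0.00338 in limma) and MTTP, which loads lipid onto apolipoprotein B, at -0.40 (SE 0.027, adjusted p = 0.00654); both are named here for their roles. Without s_at and x_at probe sets TF stood at -0.09 and was not called (adjusted p = 0.346). The 4 largest falls were those of APOA1 (-1.31), APOC3 (-0.93), APOB (-0.75) and APOM (-0.52), all of them apolipoproteins. The calls of APOB and APOM were lost on dropping any NC TuD array (0.0545 to 0.0562 and 0.0728 to 0.0805). The count was 9, 10 or 11 on dropping miR-17 TuD replicate 1, 2 or 3 and 6 on dropping any NC TuD array. It was 5 when probe sets with an s_at or x_at suffix, which can read more than one transcript, were not used. In that setting APOA1, APOC3, APOB, APOM, AMBP and CDH1 had no tested probe set left. The count thus fell partly because fewer genes were measured, and the 4 largest falls rest on such probe sets alone.

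Of genes reported to be FOXA targets, 5 of 10 measured were lower and none higher (median -0.11), where 4.60% of all genes were lower and 6.78% higher, led by APOA1 (-1.31), AFP (-1.27), FABP1, a fatty acid binding protein (-0.53), and TTR (-0.47). Of genes reported to be CEBPA targets, 4 of 15 were lower and 1 higher (median -0.02), against the same shares over all genes. APOB (-0.75), TTR (-0.47) and C3, the central complement component (-0.27, SE 0.051, adjusted p = 0.0411 in limma), were lower, with ALB at -0.21, and CDKN1A, the cell cycle inhibitor p21, was higher by 0.61. ALB stood at -0.11 and was not called with quantile normalization (0.219), and at -0.44 without s_at and x_at probe sets (0.0445). On dropping any NC TuD array the calls of AFP, FABP1, TTR, ALB, C3 and APOB were lost. Without each NC TuD array in turn 1 FOXA target and 1 CEBPA target passed, and without miR-17 TuD replicate 1 it was 3 of each.

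Of genes reported to be ONECUT or PROX1 targets, 3 of 13 were lower and 2 higher (median -0.03), where 4.60% of all genes were lower and 6.78% higher. TTR (-0.47) and the cadherin CDH1 (-0.29, SE 0.056, adjusted p = 0.0421 in limma) were lower, and CCNE1, a G1 cyclin (0.32, SE 0.063, adjusted p = 0.0434), and MET, the hepatocyte growth factor receptor (0.25, SE 0.049, adjusted p = 0.0424), were higher. SOX9, a bile duct and progenitor factor, was the remaining one at -0.15. Of these 13, 0, 1 and 3 passed on dropping miR-17 TuD replicate 1, 2 or 3, and 0, 0 and 1 on dropping NC TuD replicate 1, 2 or 3. The list is not independent of the factors' own values, since FOXA2 is a member of it.

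**Figure D4:**
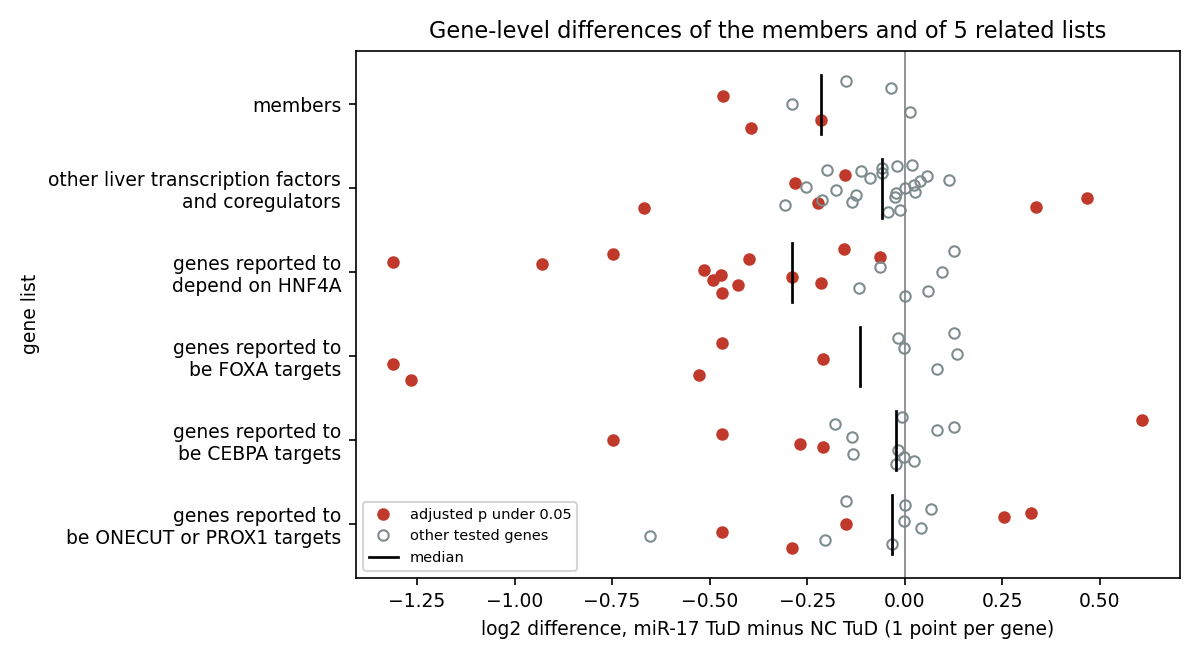
Each point is the gene-level log2 difference (miR-17 TuD minus NC TuD) of 1 gene, for the 7 measured factors and 5 related lists; filled red points passed an adjusted p of 0.05, open points did not, and black bars are medians. The factors' median is -0.22, that of the genes reported to depend on HNF4A -0.29, and the medians of the other lists lie between -0.11 and -0.02.

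The genes most like the called factors over the 6 arrays were found by Pearson's r, as a description with no test, since arrays of 2 groups give high r to any gene that separates them. For ONECUT1 they were HMGCS1, an enzyme of cholesterol synthesis (r = 0.998, difference -0.41, SE 0.035), and CNOT6, a deadenylase subunit (r = 0.997, difference -0.38, SE 0.033). In all, 271 of 13236 genes with any variation had r above 0.95 with ONECUT1. For 229376_at of PROX1 they were the zinc finger genes ZKSCAN1 (r = 0.999, difference -0.37, SE 0.053) and ZKSCAN5 (r = 0.999, difference -0.10, SE 0.018), among 277 genes above 0.95.

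Within the groups, replicate 2 often held the highest value of a factor. It was the highest miR-17 TuD array in 7 of 15 tested probe sets, against 21.7% of all tested probe sets, and the highest NC TuD array in 8 of 15, against 30.1%. Over all tested probe sets, replicates 1 and 3 were highest in 25.6% and 35.9% (miR-17 TuD) and in 27.7% and 25% (NC TuD). Probe sets with a tied highest value counted for no array but stayed in the base, so these percentages run low as comparators. The 15 probe sets are of 7 genes and are not independent. The median deviation of the 15 probe sets from their group mean was 0.04 on miR-17 TuD replicate 2 and 0.07 on NC TuD replicate 2, while that over all tested probe sets was 0 on every array.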

How the data were processed

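Total RNA of 6 samples was hybridised to Affymetrix HG-U133 Plus 2 arrays. The authors deposited 1 log2 value per array for each probe set. RMA and GCRMA appear in the submitters' processing notes, without version or role, and no genome build is given there. A shared lowest value hides changes of weak genes. Of 54675 probe sets, 62 controls were left out, and 41091 carried 1 symbol, 1801 several and 11721 none. Symbols were updated through Entrez identifiers to RefSeq (41037 matched). Probe sets with a mean at or under the 40th percentile (2.14) were not tested. The comparison used limma 3.58.1 (R 4.3.3; lmFit and eBayes, 2-sided), with Benjamini-Hochberg adjustment over 32768 probe sets or 13949 genes and a threshold of 0.05. The number of arrays limits the precision. The fit was tested on 1 set of simulated data: it recovered the sizes of the added differences on average, but the share of false calls lay above the threshold, so calls near it are less certain than their adjusted p.

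The named genes were all probe sets of the factors, up to 4 called genes of each list by size, genes named for their role, and the 2 genes most like each called factor. The factors and lists were chosen with earlier results of these data known. Alternatives covered the filter, scaling, variance model, replicate block, choice of probe set and leaving out each array.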

Additional observations from a re-analysis of the deposited data

How the results depend on the processing

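The count of factor probe sets past the threshold, 2, was 1 with no filter on low values, 5 with a filter at the 60th percentile (5.63), 4 with quantile normalization, 5 with median centring and 0 with the replicate block, and from 0 to 1 on leaving out single arrays, with 0 on leaving out any NC TuD array. In limma, 10 of 15 factor probe sets had an unadjusted p under 0.05 with the replicate block, against 7488 of all 32768 tested probe sets. On leaving out an NC TuD array 6 to 8 did, against 5368 to 6036 of all. No called factor probe set was higher in any of these fits. Of all tested probe sets 1910 passed, against 554 with no filter, 3271 with the 60th percentile filter and 2449 with quantile normalization. The count was 2930 with median centring, 0 with the replicate block and 145 to 1155 on leaving out single arrays. The count of genes of the 5 related lists, 27, was 17 with no filter, 15 with the replicate block, 11 without s_at and x_at probe sets, and from 8 to 17 on leaving out single arrays. Without s_at and x_at probe sets some of the 27 genes were no longer measured. Same-numbered arrays deviated from their group means with low correlations of 0.04, 0.10 and 0.11. Yet 6 of 6 arrays correlated best with their own number, a hint from the data and not the design. Whether same-numbered arrays are paired cannot be told from these values. With the block the adjusted p of ONECUT1 was 0.071 and of PROX1 229376_at 0.0587. Signs turned for FOXA3 with array weights (-0.0018 among probe sets and -0.0082 among genes) and on leaving out single arrays (-0.026 without NC TuD replicate 2 to 0.047 without NC TuD replicate 1, with -0.0031 without miR-17 TuD replicate 3), for ONECUT2 207676_at on leaving out single arrays (-0.00096 without miR-17 TuD replicate 1 to 0.023 without miR-17 TuD replicate 3), for F7 on its probe set that lacks that suffix (0.049) and for the FOXA2 pair of probe sets with quantile normalization (0.0037); the cause was not tested. Signal near the lowest value limits what 207676_at, 214312_at and 233441_at can show.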
